A study of Mus musculus with 17 samples.

Results

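The mitochondrial genome of the mouse carries its own protein-coding, rRNA and tRNA genes, and the transcripts of these genes were described here in cells sorted from lung tumors. The members were chosen by name: every gene whose symbol starts with mt- in any of 3 deposited expression tables was taken, whatever its level. That rule gave 34 genes out of 17555 listed in the tables, namely 13 protein-coding genes, 2 rRNA genes and 19 tRNA genes. The reference annotation holds 37 mitochondrial genes, and mt-Tf, mt-Td and mt-Tk were listed in no table. The tumor cell and TRM tables listed all 34 members, and the MDM table listed 30, without mt-Ts1, mt-Ts2, mt-Th and mt-Tt. Every listed member passed the filter on low values in its table, which asked for at least 1 RPKM (a read count divided by gene length in kilobases and by library size) in at least 2 libraries.

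The study compared mice in which lung tumors were induced with and without an added modification of Gpx4, the gene of a glutathione peroxidase that reduces lipid peroxides in membranes. KL mice carried tumor-inducing alleles that include Lkb1fl/fl, KLG4 mice carried the same alleles and Gpx4m/m, and both received Ad-Cre by the intranasal route and tamoxifen, with cells taken 10 weeks after the virus. In the Gpx4m/m allele, Cre removes a stop and a CAG promoter then drives a tamoxifen-dependent Dre recombinase that excises Gpx4, so that the deletion is designed for the cells that the virus reached. Tumor cells (sorted as CD45-CD31-EpCAM+) and 2 groups of cells labelled TRMs and MDMs, abbreviations that the labels do not spell out, were isolated by FACS, with 2 KLG4 and 2 KL libraries of each, and 12 libraries were analysed in all. The control mice thus carry all alleles but Gpx4m/m, and had the virus and the tamoxifen as well. For tumor cells the study counts its replicates as mice, though each of these libraries held both Xist (4.17 to 6.18 RPKM) and transcripts of 4 Y-linked genes (summed, 17.8 to 27.3 RPKM), and how many mice a library holds was not tested. For TRMs and MDMs nothing in the labels says whether the 2 libraries of a group came from separate mice, so p-values measure only the spread between these libraries, which may be technical. The spread within the tumor cell groups may be technical as well.

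Mammalian mitochondrial DNA is a small circle that is transcribed from both strands into long precursors, and the tRNAs that punctuate these precursors are cut out to release the mRNAs and rRNAs. The mRNAs encode subunits of respiratory complexes I, III, IV and V, while complex II and all remaining subunits come from nuclear genes. Most mature mitochondrial mRNAs end in a short poly(A) tail, and parts of the mitochondrial genome have also been copied into the nuclear chromosomes, where they can be annotated as genes of their own.

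Annotated nuclear copies of this kind pair with 7 of the 13 protein-coding genes, and mt-Atp8 lies inside the same stretch without an annotated copy of its own. Copies without an annotation were not searched for. On chromosome 1 of the GRCm38 build, 7 annotated genes lie in a block of 4663 bases, chr1:24611535-24616197, on the minus strand, and they match the mitochondrial stretch from base 6381 to base 11042 in order, with a shift of 1 base along the way. Gm28661, Gm10925, Gm28437, Gm10222 and Gm28439 were identical to the aligned parts of mt-Co2, mt-Atp6, mt-Co3, mt-Nd4l and mt-Nd4. Gm29216 differed from the end of mt-Co1 at 6 of 492 aligned bases, and Gm28438 differed from mt-Nd3 at 1 of 345. Printed here, 5′ to 3′ and from the reference transcripts, are the first bases of mt-Atp6 and mt-Nd4l with their copies, because the gene and its copy are identical there, and the stretch of mt-Co1 and mt-Nd3 where the copies differ, with the differing bases in capitals.
mt-Atp6, bases 1 to 60: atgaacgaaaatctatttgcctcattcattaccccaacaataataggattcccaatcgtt
Gm10925, bases 1 to 60: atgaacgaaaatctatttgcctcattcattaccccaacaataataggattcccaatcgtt
mt-Nd4l, bases 1 to 60: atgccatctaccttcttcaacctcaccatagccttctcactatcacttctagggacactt
Gm10222, bases 1 to 60: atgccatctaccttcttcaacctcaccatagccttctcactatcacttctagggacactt
mt-Co1, bases 1054 to 1093: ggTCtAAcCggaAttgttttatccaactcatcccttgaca
Gm29216, bases 1 to 40: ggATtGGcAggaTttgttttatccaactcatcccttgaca
mt-Nd3, bases 1 to 40: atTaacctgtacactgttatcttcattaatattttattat
Gm28438, bases 1 to 40: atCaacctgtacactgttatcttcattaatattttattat

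Counted from 1 at the 5′ end of the mitochondrial gene, with the base of the mitochondrial gene given before the position and that of the copy after it, the differences of mt-Co1 were T1056A, C1057T, A1059G, A1060G, C1062A and A1066T, and that of mt-Nd3 was T3C. Of the 150-base windows that a read of this study could cover inside a gene, the share found letter for letter in an annotated nuclear transcript was 99.4% in mt-Co2, 99.4% in mt-Atp6, 99.8% in mt-Co3, 96.98% in mt-Nd3 and 98.0% in mt-Nd4l. The share was 59.2% in mt-Nd4 and 23.6% in mt-Co1, and no window of the other 6 protein-coding genes or of either rRNA was found in a nuclear transcript. No tRNA gene, each shorter than a read, was found whole in one. A read that lies within such a window cannot by itself be assigned to the mitochondrion or to the nucleus, though its mate may lie outside, so levels of mt-Co2, mt-Atp6, mt-Co3, mt-Nd3 and mt-Nd4l are uncertain, and so is that of mt-Atp8. The tRNA genes mt-Ts1, mt-Tg and mt-Tr lie inside the same stretch without an annotated copy, so their levels are uncertain too.

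Several properties of the libraries bear on the values that follow. Counted reads per library ranged from 9140750 in KL replicate 2 of TRMs to 36617000 in KL replicate 1 of tumor cells. Gpx4 itself was at 56.4 and 61.9 RPKM in KLG4 compared with 95.0 and 76.8 in KL tumor cells, at 53.8 and 57.0 against 89.8 and 88.2 RPKM in TRMs. MDMs had 93.6 and 97.7 RPKM of Gpx4 in KLG4 and 44.9 and 71.3 in KL, where it thus stood higher in the libraries labelled KLG4. Of the markers of the labelled cell types, all 5 epithelial genes stood above 1 RPKM in each tumor cell library, all 7 alveolar macrophage genes in each TRM library and 6 of the 7 monocyte-derived macrophage genes in each MDM library. These counts do not tell the macrophages apart, since all 7 alveolar macrophage genes also stood above 1 RPKM in each MDM library, but the alveolar genes summed to 8315 to 12854 RPKM in TRMs and 1270 to 2301 RPKM in MDMs, in tables normalized separately. Of the monocyte-derived genes, Itgam stood apart, at 316 to 549 RPKM in MDMs and 11.1 to 30.1 RPKM in TRMs, while Ccr2, C1qa, C1qb, Cx3cr1 and Adgre1 overlapped between the tables and Ly6c2 stayed below 1 RPKM in MDMs. Markers of the sorted cells and of other cells moved with the genotype in tumor cells. The 5 epithelial genes summed to 3000 and 3009 RPKM in KLG4 compared with 6989 and 5243 in KL, and each of Epcam, Cdh1, Krt8, Krt18 and Nkx2-1 was lower in both KLG4 libraries. The 5 leukocyte genes summed to 113 and 116 RPKM in KLG4 and to 11.9 and 13.3 RPKM in KL tumor cells, the 5 fibroblast genes to 355 and 353 against 10.3 and 15.6 RPKM, the 7 alveolar macrophage genes to 395 and 403 against 39.5 and 62.3 RPKM, and the 7 AT2 (alveolar type II) genes to 1251 and 1267 against 3612 and 4068 RPKM. The 6 monocyte-derived genes listed summed to 107 and 105.2 against 4.05 and 7.68 RPKM, the 4 T cell genes to 16.6 and 19.5 against 1.10 and 1.15 RPKM, and the cardiac muscle genes, mostly Myh7, to 33.5 and 33.1 against 112 and 113 RPKM. The 4 plasma cell genes summed to 218 and 225 against 217 and 208 RPKM and did not move together. Jchain was at 101 and 112 against 0.304 and 0.631 RPKM, and Mzb1 was also higher in both KLG4 libraries. Sdc1 was lower in both, at 68.4 and 67.1 against 180 and 167 RPKM, and Xbp1 overlapped. In TRMs the AT2 genes summed to 31.9 and 64.7 RPKM in KLG4 compared with 167 and 179 in KL, a sum carried by Sftpc, Sftpb, Sftpa1 and Sftpd, while Abca3 was higher in both KLG4 libraries and Slc34a2 overlapped. The epithelial genes there summed to 49.6 and 81.7 against 95.8 and 110.4 RPKM through Krt8 and Krt18, while Epcam overlapped and Cdh1 was higher in KLG4. The leukocyte genes summed to 259 and 248 against 185 and 219 RPKM, though Coro1a was lower in KLG4 and Laptm5 overlapped. The monocyte-derived genes summed to 113 and 117 against 71.2 and 59.0 RPKM, and Cx3cr1 overlapped. TRMs also had 0.660 and 3.37 RPKM of the summed cardiac muscle genes in KLG4 compared with 8.65 and 5.33 in KL, and the alveolar genes were at the upper end of their range in KLG4 (12854 and 11993 RPKM) and at its lower end in KL (8456 and 8315 RPKM). Chil3 carried most of that difference, at 7512 and 6236 against 2953 and 3150 RPKM. Marco, Fabp4, Car4 and Itgax were also higher in both KLG4 libraries, Ear2 was lower in both and Siglecf overlapped. In MDMs the AT2 genes summed to 36.7 and 69.5 as opposed to 155 and 377 RPKM, the epithelial genes to 16.7 and 54.0 against 65.3 and 225 RPKM and the cardiac muscle genes to 0.684 and 3.35 against 6.02 and 16.2 RPKM. Krt8 and Krt18 carried the epithelial sum, while Cdh1 overlapped (11.1 and 14.9 against 5.58 and 13.3 RPKM), as did Abca3 among the AT2 genes. Xist was at 18.3 and 20.2 RPKM in KLG4 TRMs and 0.257 and 0.501 RPKM in KL TRMs, where 4 Y-linked genes summed to 23.5 and 28.2 RPKM against 0.0144 and 0 RPKM in KLG4, so that genotype and sex chromosomes cannot be told apart in TRMs. In MDMs, Xist was at 0.839 RPKM in KL replicate 2 and at 19.4 to 21.8 RPKM in the others. The chi-square statistic per gene was 3.28 between the 2 KLG4 tumor cell libraries and 28.9 to 131.5 between the libraries of the other pairs, so the spread within that group is small. The p-values of tumor cells rest in part on this small spread, and whether it is more than technical was not tested. In bulk samples of this kind, fewer cells of a type and less RNA per cell cannot be told apart, and the part of these differences in the results was not tested.

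Mitochondrial transcripts took more of the reads in KLG4 than in KL tumor cells, and less in KLG4 than in KL macrophages of either kind. In tumor cells, the 34 members held 8.95% and 8.88% of counted reads in KLG4 compared with 4.21% and 5.12% in KL. The means were 8.91% ± 0.0522 and 4.67% ± 0.646 (SD, n = 2), a share 1.91-fold higher in KLG4. In TRMs the members held 1.43% and 2.40% in KLG4 and 13.2% and 9.17% in KL, a share 5.83-fold lower in KLG4. Both KLG4 libraries of TRMs lay far below both KL libraries, and the KL libraries also lay above every tumor cell library. In MDMs the shares were 0.494% and 0.661% in KLG4 and 1.35% and 3.36% in KL, 4.07-fold lower in KLG4. The groups of MDMs did not overlap, but the KL libraries stood further apart from each other than the lower of them stood from KLG4, and the log2 ratio of the shares came to -2.54 when KL replicate 1 was left out and to -1.22 when KL replicate 2 was. Since the share is a score over the members, no test was made of it.

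The same direction held in each class of gene. The protein-coding genes alone took 8.52% ± 0.0553 (SD, n = 2) of the reads in KLG4 and 4.52% ± 0.606 in KL tumor cells, and 1.80% ± 0.662 against 10.6% ± 2.69 in TRMs. The rRNA genes, whose transcripts carry at most short tails and which a poly(A) selection depletes, took 0.172% ± 0.00131 and 0.0600% ± 0.00630 in KLG4 and KL tumor cells and 0.0605% ± 0.00198 and 0.188% ± 0.0126 in TRMs. The tRNA genes took 0.223% ± 0.00173 and 0.0910% ± 0.0345 in tumor cells and 0.0554% ± 0.0255 and 0.355% ± 0.113 in TRMs. With the nuclear copies added, the share came to 14.8% and 14.7% in KLG4 and 7.38% and 8.26% in KL tumor cells, and to 2.95% and 5.78% in KLG4 and 31.5% and 22.3% in KL TRMs. The copies on chromosome 1 thus added more reads than the 34 members held in each TRM library, and fewer than they held in each tumor cell library.

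**Figure D1:**
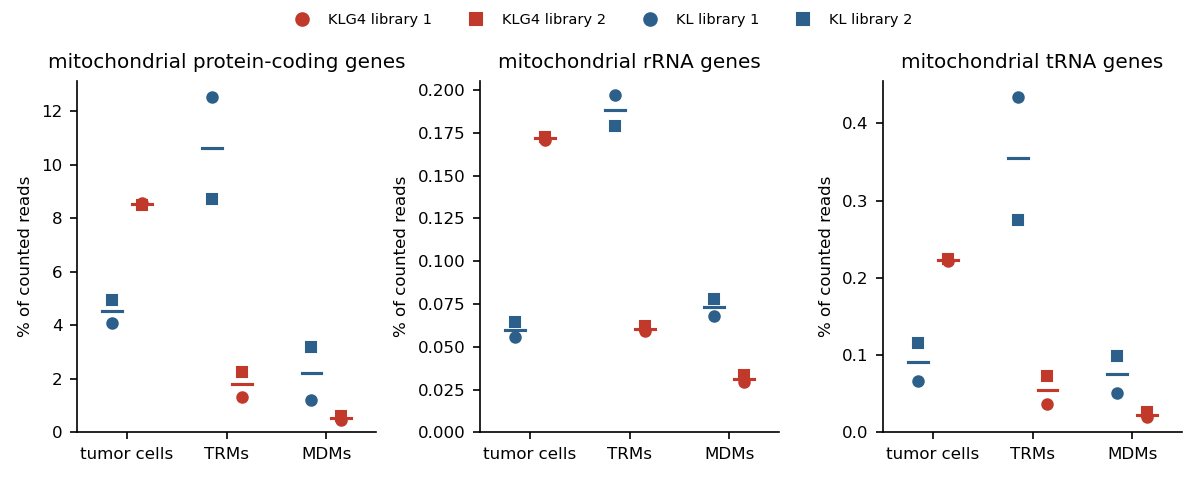
Share of counted reads (%) in mitochondrial protein-coding, rRNA and tRNA genes, each panel with its own axis from 0. Points are libraries, red for KLG4 and blue for KL, and bars are means of 2 libraries. KLG4 lies above KL in tumor cells, for example 8.52% against 4.52% in protein-coding genes, and below KL in TRMs, at 1.80% against 10.6%, and in MDMs.

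Among protein-coding genes, mt-Co1 was at the top and mt-Co3 at the bottom in all 3 populations. mt-Co1 (chromosome MT, 5328 to 6872) encodes the catalytic subunit of complex IV, and its mean over the 4 libraries of a table was 17234 RPKM in tumor cells, 17211 RPKM in TRMs and 3006 RPKM in MDMs. Ranked among all genes of a library by RPKM, it stood at position 2 or 3 in tumor cells, at 15 and 4 in KLG4 TRMs, at 3 in both KL TRM libraries, at 48 and 23 in KLG4 MDMs and at 10 and 5 in KL MDMs. In tumor cells the order was mt-Co1, mt-Cytb, mt-Nd1, mt-Nd4, mt-Nd4l, mt-Nd5, mt-Nd2 and mt-Nd6, down to a mean of 1161 RPKM. After a gap of nearly an order of magnitude followed mt-Co2, mt-Nd3, mt-Atp6, mt-Atp8 and mt-Co3, with means from 128 down to 45.9 RPKM. The same 5 genes were the lowest in TRMs, at means of 4.46 to 96.2 RPKM, and in MDMs, at 2.18 to 25.5 RPKM. All but mt-Atp8 are among the genes whose windows are nearly all found in a nuclear transcript. mt-Nd4l is also such a gene, yet it stood among the high ones, and its copy Gm10222 was listed in no table.

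**Figure D2:**
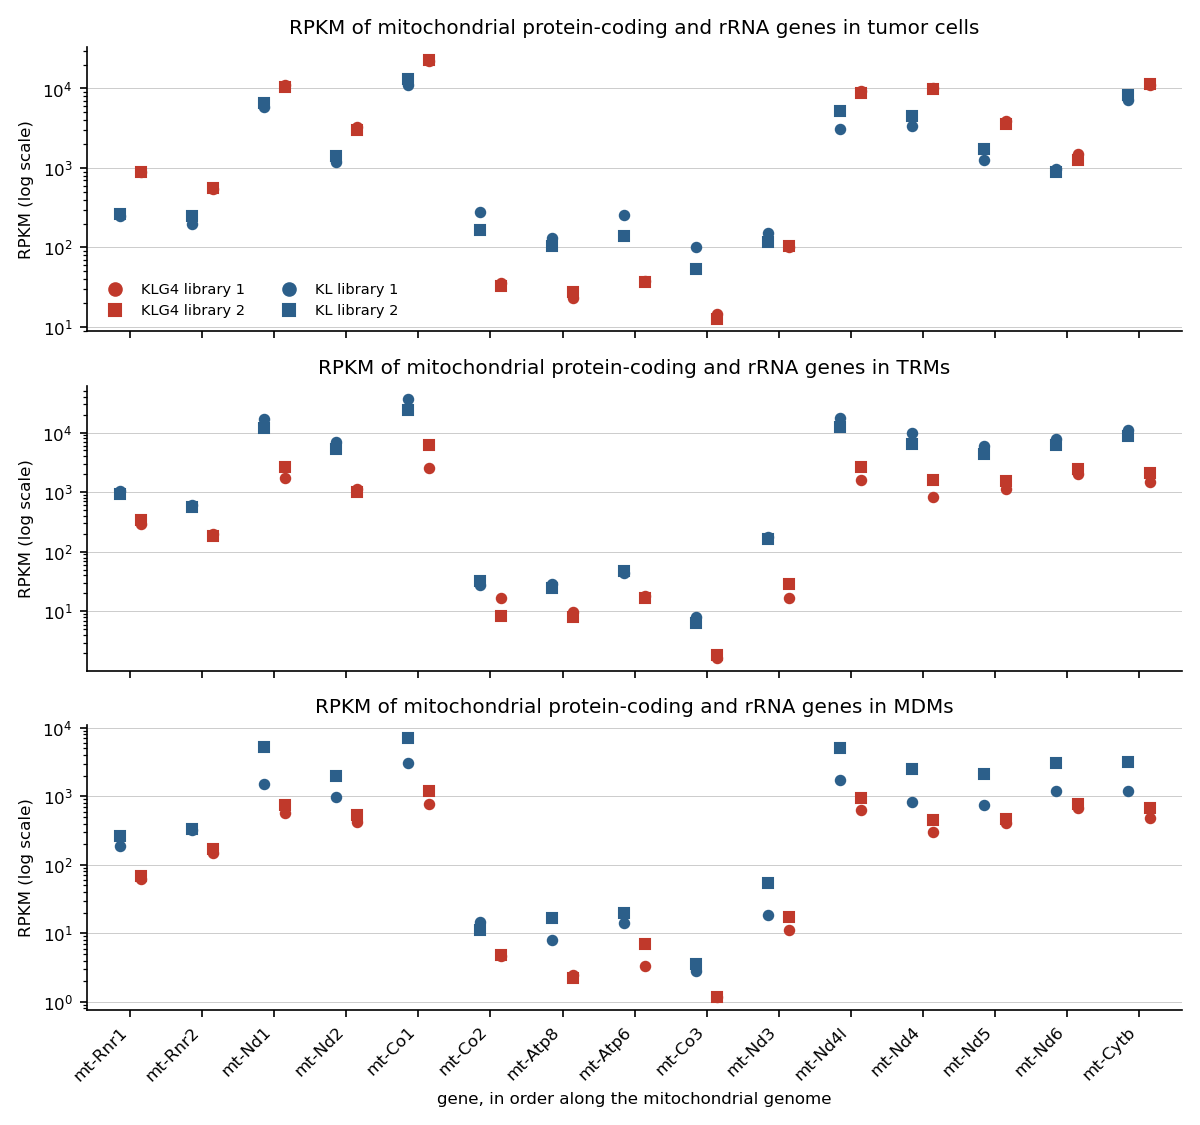
RPKM (log axis) of the 2 rRNA and 13 protein-coding genes, in order along the mitochondrial genome, in each library (red KLG4, blue KL, symbols by replicate). mt-Co2, mt-Atp8, mt-Atp6, mt-Co3 and mt-Nd3 lie below the other protein-coding genes in every library, and only in tumor cells do KLG4 libraries lie above KL libraries in the remaining genes.

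In tumor cells most complex I genes were higher in KLG4. Complex I, the NADH dehydrogenase at the entry of the chain, has 7 mitochondrially encoded subunits, all in its membrane arm, and 6 of the 7 genes passed an adjusted p of 0.05 in the higher direction, which 20.6% of all 13770 genes tested did. Over the 13 protein-coding genes, 7 rose, 4 fell and 2 did not pass, where 40.3% of all genes tested passed in either direction. mt-Nd4 was at 10214 and 9831 RPKM in KLG4 compared with 3403 and 4472 in KL, 2.57-fold higher in limma (log2 1.36 ± 0.19 SE, adjusted p 0.00415). mt-Nd5 was at 3888 and 3572 RPKM against 1272 and 1749 RPKM, a difference of 1.32 (adjusted p 0.0048). In both genes each KLG4 library held more than 2 times the level of each KL library.
mt-Nd2 was at 3246 and 3023 RPKM in KLG4 compared with 1206 and 1434 in KL, 2.38-fold higher (log2 1.25 ± 0.15 SE, adjusted p 0.00248). mt-Nd4l was at 9279 and 8852 RPKM against 3075 and 5259 RPKM, 2.25-fold higher (adjusted p 0.0233). The KL libraries of mt-Nd4l differed from each other more than those of any other complex I gene, but stayed below both KLG4 libraries. mt-Nd1, at 11189 and 10514 RPKM against 5778 and 6623 RPKM, was 1.75-fold higher (adjusted p 0.0152). mt-Nd6, the only protein-coding gene on the other strand, was at 1516 and 1245 RPKM against 982 and 899 RPKM, 1.46-fold higher (adjusted p 0.0365). The libraries kept no strand, so reads counted on mt-Nd6 can come from either strand, here and below. mt-Nd3 did not follow: it was at 102 and 103.4 RPKM in KLG4 compared with 150 and 118 in KL, with both KLG4 libraries the lower ones, and did not pass (log2 -0.38, adjusted p 0.0955).

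mt-Cytb and mt-Co1, the high genes of complexes III and IV, also stood higher in KLG4 tumor cells. mt-Cytb, the cytochrome b of complex III, was at 11128 and 11228 RPKM in KLG4 compared with 7225 and 8392 in KL. Its groups did not overlap, and the log2 difference of 0.52 did not pass, with an adjusted p of 0.0603. mt-Co1 was at 21987 and 22865 RPKM in KLG4 compared with 10928 and 13156 in KL, with no overlap, 1.87-fold higher (log2 0.90 ± 0.19 SE, adjusted p 0.0164). Of the 13 protein-coding genes, all KLG4 libraries stood above all KL libraries in 8 and below in 5, against 32.5% and 42.2% of all genes tested. The 7 calls in the higher direction rest on having both KLG4 libraries: 0 were left without KLG4 replicate 1, where only 4 lower calls passed, and without KLG4 replicate 2 there were 2 higher and 4 lower. Those fits called 15.7% and 14.8% of all genes. Quantile scaling took the log2 difference of mt-Co1 to 0.05, of mt-Cytb to 0.06 and of mt-Nd1 to 0.29, and ended the calls of mt-Co1, mt-Nd1 and mt-Nd4l.

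The 4 genes that fell in KLG4 tumor cells were mt-Co2, mt-Co3, mt-Atp6 and mt-Atp8, which encode subunits of complex IV and of the ATP synthase, complex V. They lie next to each other, from base 7013 to base 9390, and 19.6% of all genes tested passed in this direction. mt-Co2 was at 35.8 and 32.4 RPKM in KLG4 compared with 275 and 167 in KL, 6.28-fold lower (log2 -2.65 ± 0.25 SE, adjusted p 0.00108). mt-Co3 was at 14.6 and 12.7 RPKM against 102 and 54.2 RPKM, 5.42-fold lower (adjusted p 0.00278). mt-Atp6 was at 37.5 and 36.4 RPKM against 253 and 137 RPKM, 5.03-fold lower (adjusted p 0.00269). In each gene KL replicate 1 was the highest library and the 2 KLG4 libraries were close together at the bottom. mt-Atp8 was at 22.8 and 27.4 RPKM in KLG4 compared with 131 and 102.9 in KL, 4.63-fold lower (log2 -2.21 ± 0.17 SE, adjusted p 6.6e-04). It has no annotated copy of its own, but its last 43 bases (7927 to 7969) are also the first bases of mt-Atp6 in another reading frame, and these are in capitals below because they belong to both genes and to Gm10925 as well.
mt-Atp8, bases 115 to 204: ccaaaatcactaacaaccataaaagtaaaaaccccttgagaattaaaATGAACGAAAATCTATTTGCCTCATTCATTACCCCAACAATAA

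Nearly all reads of mt-Co2, mt-Atp6 and mt-Co3 were counted on the nuclear copy. The study states default parameters for featureCounts and does not spell out how reads that map equally well to both places were treated. These shares and the differences of the single genes therefore rest on the aligner and counter. Over the 12 libraries, the copy held 97.6% to 99.9% of the reads of the pair mt-Co2 and Gm28661, at least 98.9% of those of mt-Atp6 and Gm10925 and at least 98.8% of those of mt-Co3 and Gm28437. It held 25.6% to 38.0% for mt-Nd3, 3.84% to 17.1% for mt-Co1 and at most 0.0387% for mt-Nd4. Gm10925 was at 52948 and 51785 RPKM in KLG4 compared with 22346 and 23356 in KL tumor cells, and it ranked at position 1 among all genes in each of the 8 tumor cell and TRM libraries. mt-Atp6, of the same sequence, ranked between 243 and 2880 in these libraries.

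When each gene was summed with its copy, the direction turned for 2 of the low genes of tumor cells. The summed level of mt-Atp6 and Gm10925 was 52752 and 51594 RPKM in KLG4 compared with 22501 and 23390 in KL, with a log2 difference of 1.19 ± 0.19 (SE). That of mt-Co3 and Gm28437 was 18095 and 18643 against 8844 and 9575 RPKM, with a log2 difference of 1.00 ± 0.17. Both sums passed in the higher direction (40.3% of all genes tested in that fit passed in either direction), and in both the KLG4 libraries lay far above the KL libraries. The sum of mt-Co2 and Gm28661, at 10561 and 10175 RPKM in KLG4 compared with 11260 and 9810 in KL, had overlapping groups and a log2 difference of -0.02 ± 0.17. The sum for mt-Nd3 did not pass (-0.36 ± 0.14), and those for mt-Co1 (0.83 ± 0.18) and mt-Nd4 (1.36 ± 0.19) stayed near the values of the gene alone.
In tumor cells the calls also differed by position along the genome. Inside the stretch that matches chromosome 1, 1 of 9 tested members rose, 4 fell and 4 did not pass, where 20.6% of all genes tested rose and 19.6% fell. Of the 23 tested members outside it, 18 rose, none fell and 5 did not pass, and mt-Co1 and mt-Nd4, which lie partly inside, both rose. TRMs had no such split by direction: 7 of the 9 members inside and 15 of the 23 outside fell, and none rose, where 0.437% of all genes tested fell.

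**Figure D3:**
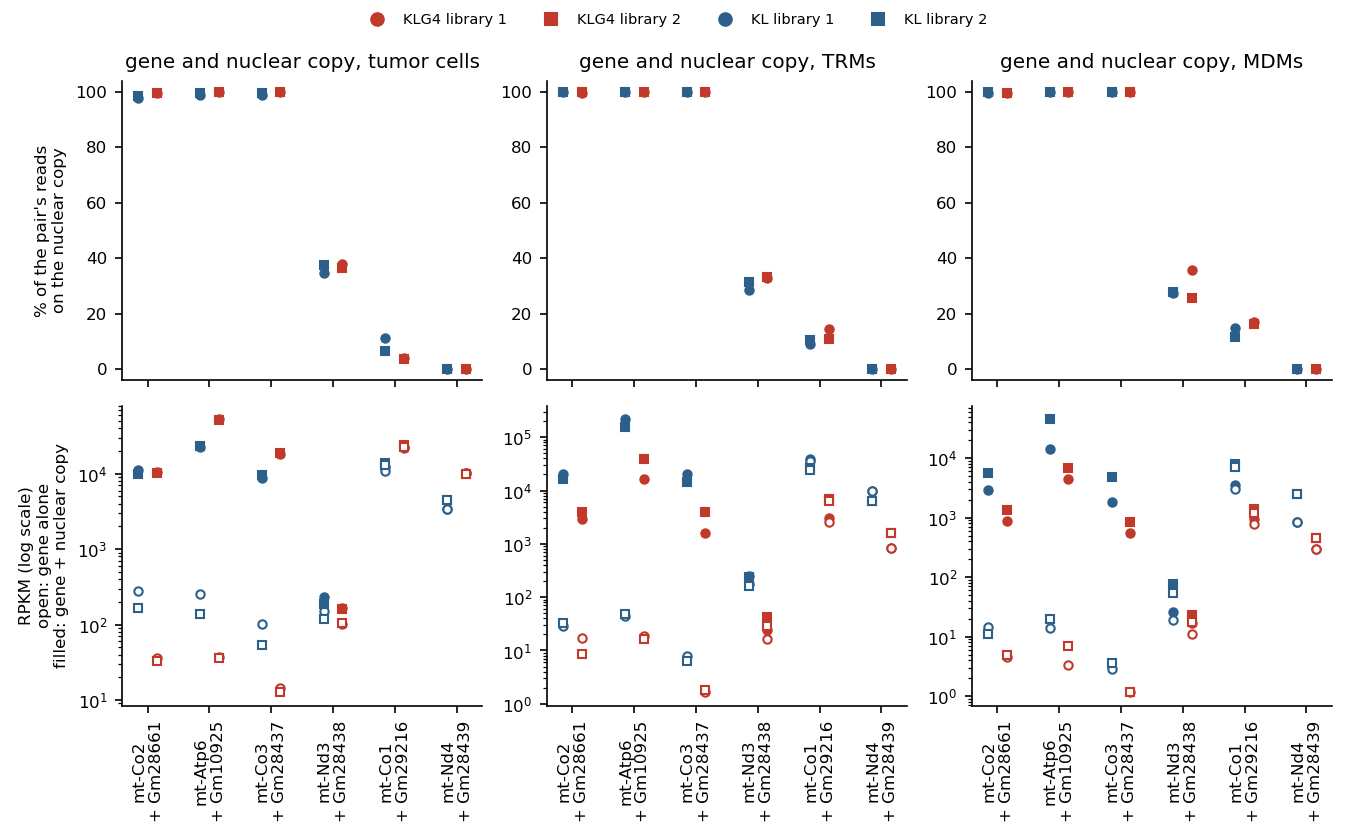
Upper row, share (%) of the reads of each gene and its nuclear copy that was counted on the copy; lower row, RPKM (log axis) of the mitochondrial gene alone (open) and summed with its copy (filled), by library (red KLG4, blue KL). Copies held over 97% for mt-Co2, mt-Atp6 and mt-Co3, and the KLG4 libraries of tumor cells lie below KL for mt-Atp6 and mt-Co3 alone and above KL for the sums.

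In TRMs all protein-coding genes stood lower in KLG4. At an adjusted p of 0.05, 12 of the 13 fell, where 0.437% of 10990 genes tested fell and 1.8% passed in either direction. All 13 had both KLG4 libraries below both KL libraries, against 8.95% of all genes tested. The median log2 difference of the 13 was -2.46, while the median of all genes was 0.38, so that relative to all genes the 13 lay 2.85 lower. mt-Co1 was at 2569 and 6261 RPKM in KLG4 compared with 36226 and 23787 in KL, 7.32-fold lower (log2 -2.87 ± 0.45 SE, adjusted p 0.0475). mt-Cytb was at 1506 and 2061 RPKM against 10880 and 8690 RPKM, 5.52-fold lower (adjusted p 0.0274). For both genes the lowest KL library was more than 3 times the highest KLG4 library.
Complex I genes fell throughout. mt-Nd3 was at 16.5 and 28.4 RPKM in KLG4 compared with 178 and 161 in KL, 7.80-fold lower (log2 -2.96 ± 0.27 SE). mt-Nd2, at 1109 and 993 RPKM against 6820 and 5317 RPKM, had the lowest adjusted p of the 13, 0.0122, with a log2 difference of -2.52 ± 0.19. mt-Nd6 was at 2024 and 2406 RPKM against 7829 and 6145 RPKM, 3.14-fold lower, and its neighbour mt-Nd5 was 3.82-fold lower. These were the smallest differences of complex I. mt-Nd1 was at 1738 and 2654 RPKM in KLG4 compared with 16703 and 11819 in KL, 6.54-fold lower. mt-Nd4, at 839 and 1595 RPKM against 9827 and 6433 RPKM, was 6.87-fold lower, and mt-Nd4l, at 1570.0 and 2677 RPKM against 17679 and 12179 RPKM, 7.16-fold lower. In all 3 genes KLG4 replicate 2 was above KLG4 replicate 1 and far below both KL libraries.

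The genes at the low end of the TRM tables moved the same way. mt-Atp6 was at 18.4 and 16.7 RPKM in KLG4 compared with 43.8 and 48.2 in KL, 2.61-fold lower (adjusted p 0.0383). mt-Atp8 (log2 -1.58) and mt-Co3 (log2 -1.96, on 17 to 62 reads) fell as well. mt-Co2, at 16.9 and 8.46 RPKM against 28.2 and 32.9 RPKM, was 2.53-fold lower and did not pass (adjusted p 0.0856). Summed with their copies, mt-Co2 was 5.33-fold, mt-Atp6 7.13-fold and mt-Co3 6.95-fold lower, and of the 6 sums all but that of mt-Co3 passed, in a fit that called 1.69% of genes. The calls depended on the scaling and the fit, while the direction of the median did not: 4 of the 13 passed under TMM scaling, where 0.255% of all genes did, 8 under quantile scaling (0.546%), 12 in limma-voom on recovered reads (7.14%), 4 after rescaling to reads outside mitochondrial genes and copies, where 0.282% did, 0 without a mean-variance trend (0.109% of all genes), and 5 without KL replicate 1 (1.97%). Beside these values stand the summed epithelial, AT2 and cardiac muscle genes, which were higher in KL TRMs, and the summed leukocyte, alveolar and monocyte-derived genes, which were lower. The Xist and Y-linked values given above stand there too, and the part of all these was not tested.

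In MDMs the protein-coding genes were lower in KLG4 with none past the threshold. limma called 0 of 10475 genes in this table (0.0%), limma-voom on recovered reads also called 0, and for 706 genes (6.74%) the p before adjustment was under 0.05. By the looser rule of the study, which asks for such a p and a difference of at least 2-fold, 12 of the 13 were lower, as were 3.07% of all genes tested. All 13 had both KLG4 libraries below both KL libraries, against 19.1% of all genes tested, and their median log2 difference was -1.76, against 0.02 for all genes. mt-Co1 was at 775 and 1181 RPKM in KLG4 compared with 3052 and 7015 in KL (log2 -2.27 ± 0.48 SE, adjusted p 0.679). mt-Nd1 was at 580 and 748 RPKM against 1525 and 5190.0 RPKM (log2 -2.10 ± 0.62). KL replicate 2 was the highest library in every gene but mt-Co2, and KL replicate 1 lay between it and the KLG4 libraries.
mt-Co2 was at 4.60 and 4.83 RPKM in KLG4 compared with 14.7 and 11.3 in KL (log2 -1.43 ± 0.24), and mt-Atp8 at 2.44 and 2.26 against 7.92 and 17.0 RPKM (log2 -2.26 ± 0.42). mt-Nd3 was the gene short of the study threshold, at 11.0 and 17.3 RPKM against 18.7 and 54.8 RPKM. Among the other complex I genes, mt-Nd2 was at 422 and 534 RPKM in KLG4 compared with 970 and 1994 in KL (log2 -1.55), and mt-Nd4 was at 299 and 447 RPKM against 833 and 2483 RPKM (log2 -1.98). mt-Nd6 was at 686 and 766 RPKM against 1204 and 3020 RPKM (log2 -1.40). mt-Cytb of complex III was at 486 and 676 RPKM against 1215 and 3128 RPKM (log2 -1.77). Without KL replicate 1, all 13 passed an adjusted p of 0.05, with a median of -2.29, in a fit that called 25.5% of all genes, and without KL replicate 2 none did, with a median of -1.19. KL replicate 2 is the MDM library with the most AT2 transcripts and the least Xist, and the part of either was not tested.

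The rRNA genes followed the protein-coding genes in every population. mt-Rnr1 (70 to 1024) gives the 12S rRNA of the small and mt-Rnr2 (1094 to 2675) the 16S rRNA of the large subunit of the mitochondrial ribosome. In tumor cells mt-Rnr1 was at 883 and 880.1 RPKM in KLG4 compared with 250.5 and 260 in KL, 3.45-fold higher (log2 1.79 ± 0.11 SE, adjusted p 3.81e-04). mt-Rnr2 was at 547 and 560 RPKM against 200 and 251 RPKM, 2.47-fold higher (log2 1.31 ± 0.15, adjusted p 0.00195). Neither gene has a copy in the block on chromosome 1, and the groups stood well apart in both.
In TRMs mt-Rnr1 was at 296 and 345 RPKM in KLG4 compared with 1044 and 940 in KL, 3.10-fold lower (adjusted p 0.0292), and mt-Rnr2 at 195 and 183 against 615 and 565 RPKM, 3.12-fold lower (adjusted p 0.0274). Both passed, but neither did without a mean-variance trend, and both were smaller differences than the median of the protein-coding genes. In MDMs mt-Rnr1 was at 61.8 and 68.6 RPKM against 188 and 266 RPKM (log2 -1.78 ± 0.25), and mt-Rnr2 at 147 and 169 against 317 and 333 RPKM (log2 -1.04 ± 0.19), and neither passed. The ratio of mt-Rnr1 to mt-Rnr2 per length was 1.57 to 1.61 in KLG4 and 1.04 to 1.25 in KL tumor cells, 1.52 to 1.89 in TRMs and 0.407 to 0.798 in MDMs, where the larger rRNA thus had the higher level in each library.

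The tRNA genes rose in part in tumor cells and none fell. Of 19 tRNA genes, 12 were higher in KLG4, as were 20.6% of all genes tested, and 7 did not pass, with a median log2 difference of 1.20, against -0.09 for all genes. mt-Tw showed the largest difference of all members in tumor cells: its level was 505 and 556 RPKM in KLG4 compared with 37.1 and 110.5 in KL (log2 3.05 ± 0.49 SE, adjusted p 0.00661). mt-Ti was at 46.8 and 38.2 RPKM against 7.92 and 9.10 RPKM (log2 2.30 ± 0.16), on 57 and 42 against 20 and 19 reads. mt-Ta, mt-Tq, mt-Tn, mt-Tl1, mt-Tm and mt-Tc were higher by 2.29, 2.16, 1.98, 1.92, 1.75 and 1.71 on the log2 scale, and mt-Te, mt-Ty, mt-Tv and mt-Tt by 1.34, 1.20, 0.92 and 0.75. In most of these KL replicate 1 was the lowest library, for example 261 against 772 RPKM in KL replicate 2 for mt-Ta, which had 2183 and 2197 RPKM in KLG4. mt-Tg, mt-Tp and mt-Tr, named because they passed in TRMs, did not pass in tumor cells (log2 0.32, 0.20 and -0.39). Quantile scaling ended the call of mt-Ty, at a log2 difference of 0.45.
Most of the tRNA genes that rose lie between mt-Rnr1 and mt-Co1, while the 3 between mt-Nd4 and mt-Nd5, which are mt-Th, mt-Ts2 and mt-Tl2 and were named after their values were seen, had log2 differences of -0.55, -0.49 and -0.01 and did not pass.

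mt-Ty was the highest tRNA gene everywhere, and its level tracked that of mt-Co1. Its 67 bases (5260 to 5326, minus strand) lie shortly before mt-Co1, which begins at 5328, and the gene for the methionine tRNA, mt-Tm (3845 to 3913), lies directly before mt-Nd2. Both are printed whole because they were the tRNA genes with the most signal in TRMs and MDMs, 5′ to 3′ as the genes read.
mt-Ty: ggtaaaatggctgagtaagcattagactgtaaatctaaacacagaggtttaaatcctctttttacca
mt-Tm: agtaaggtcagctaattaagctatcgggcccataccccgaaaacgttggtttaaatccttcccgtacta

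mt-Ty was at 20549 and 21019 RPKM in KLG4 compared with 6939 and 11822 in KL tumor cells, at 2813 and 6575 against 39886 and 24272 RPKM in TRMs and, in MDMs, at 952 and 1359 against 3446 and 8098 RPKM. The ratio of mt-Ty to mt-Co1 per length stayed between 0.635 and 1.23 over all 12 libraries. Each tRNA gene is shorter than the 150-base read and the libraries kept no strand, so a read counted on a tRNA gene can extend into its neighbours and can come from either strand, and levels of tRNA genes are not levels of mature tRNA. mt-Tm was at 895 and 950 RPKM in KLG4 compared with 223 and 338 in KL tumor cells, and at 625 and 566 against 4779 and 3767 RPKM in TRMs, 7.14-fold lower (adjusted p 0.00904). In MDMs it was at 756 and 1013 against 1689 and 1825 RPKM, with a ratio to mt-Nd2 of 0.915 to 1.90 there, above the 0.185 to 0.314 of tumor cells and the 0.563 to 0.708 of TRMs.

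In TRMs, 10 of the 19 tRNA genes fell, as did 0.437% of all genes tested, and 9 did not pass. All 19 had both KLG4 libraries below both KL libraries, against 8.95% of all genes tested. Against these 10 calls there were 4 under TMM scaling, 5 under quantile scaling, 5 after rescaling, 6 without KL replicate 1 and 0 without a mean-variance trend, and 18 in limma-voom. The median log2 difference was -2.84. mt-Tg was at 7.69 and 11.3 RPKM in KLG4 compared with 88.2 and 86.9 in KL, 9.32-fold lower (log2 -3.22 ± 0.23 SE, adjusted p 0.00979). mt-Tr, mt-Tq, mt-Tl1 and mt-Ti were lower by 8.91-fold, 8.31-fold, 8.23-fold and 7.76-fold, and mt-Ty, mt-Tm, mt-Tw, mt-Tc and mt-Tp also passed. Of these, mt-Tg and mt-Tr lie inside the stretch that matches chromosome 1, so their levels are uncertain. mt-Te was the tRNA gene with the smallest difference, at 124 and 87.5 RPKM against 164 and 155 RPKM (log2 -0.61, adjusted p 0.134). In MDMs none of the 15 tRNA genes listed passed an adjusted p of 0.05, as none of all genes did (0.0%), and 11 were lower at the threshold of the study, as were 3.07% of all genes tested, with a median log2 difference of -1.42. The largest there were mt-Ty (-2.22 ± 0.48 SE) and mt-Tl1 (-2.08 ± 0.55), and mt-Tg had overlapping groups, at 28.2 and 38.4 against 36.4 and 90.7 RPKM.

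**Figure D4:**
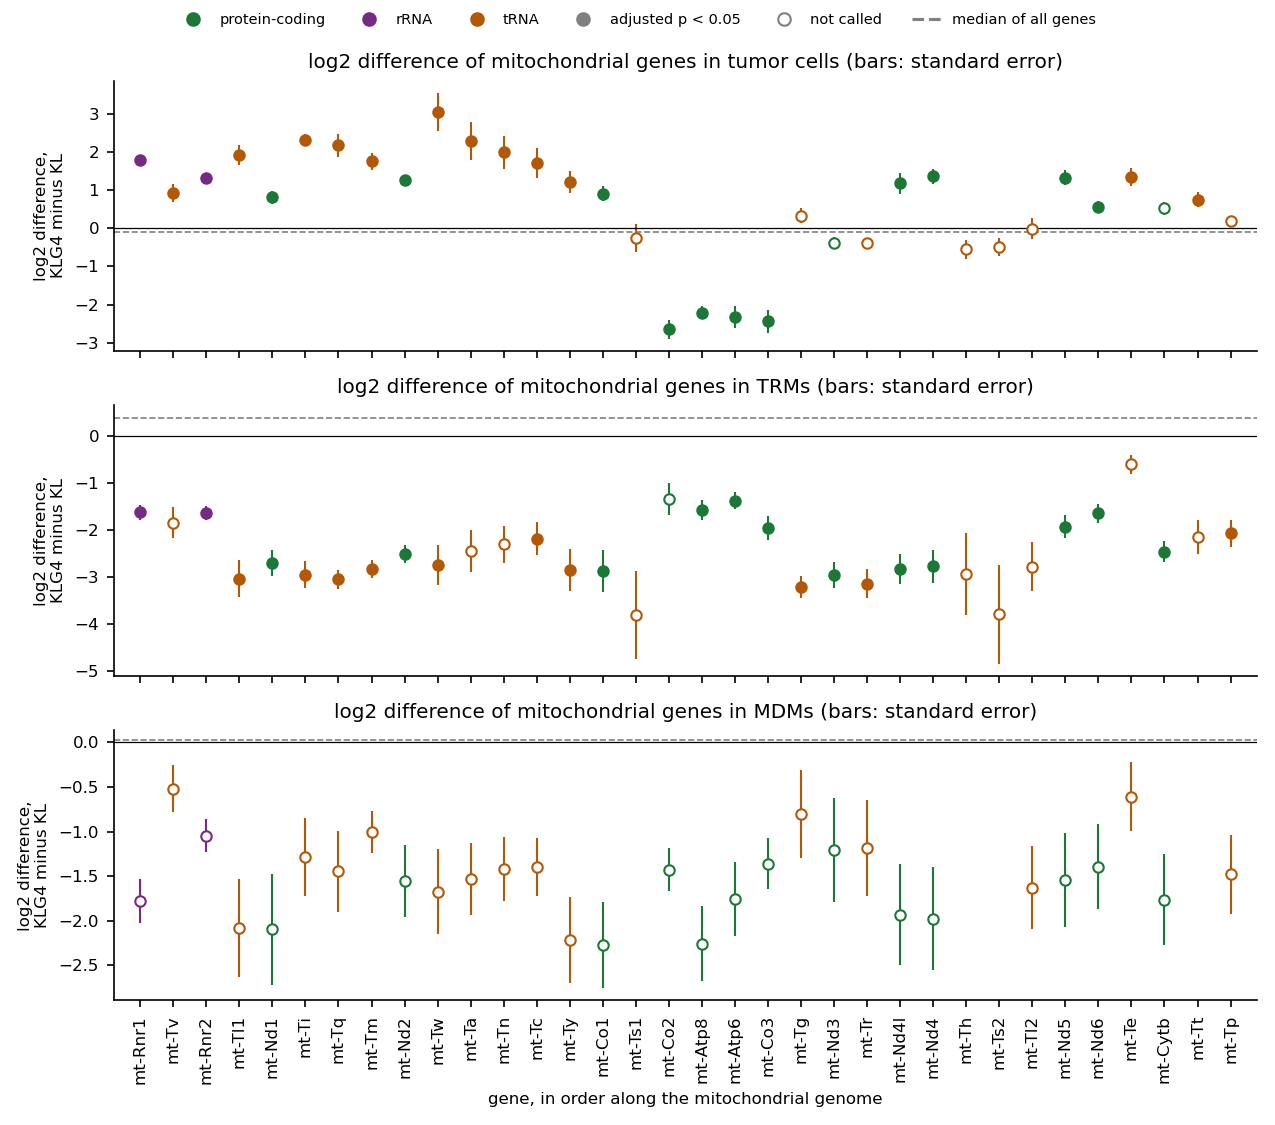
log2 difference, KLG4 minus KL, with its standard error for each tested member in genome order, with protein-coding genes green, rRNA purple and tRNA orange, filled where the adjusted p was under 0.05. The dashed line is the median of all genes, at -0.09 in tumor cells, 0.38 in TRMs and 0.02 in MDMs, and the 4 low neighbours mt-Co2, mt-Atp8, mt-Atp6 and mt-Co3 stand far below that line in tumor cells.

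Within the 13 protein-coding genes, the mix of transcripts shifted with the genotype as well as the total. In tumor cells mt-Co1 held 40.7% of their reads in KLG4 and 41.2% in KL on average, with overlapping groups. mt-Cytb held 15.01% in KLG4 and 19.8% in KL, while mt-Nd4 held 16.2% against 11.97% and mt-Nd5 7.98% against 6.06%, each with no overlap. In TRMs mt-Nd5 held 14.0% of the reads in KLG4 and 8.85% in KL, and mt-Nd6 6.70% and 3.45%, with no overlap, while mt-Co1 held 36.2% and 43.4% with overlap. In MDMs mt-Co1 held 28.6% and 36.2%, mt-Nd5 15.3% and 11.7% and mt-Nd6 7.30% and 5.01%, each with no overlap. The share of mt-Nd5 was thus higher in KLG4 in each population, and that of mt-Nd6 was lower in KLG4 tumor cells, at 0.841% against 1.10%. These shares are a description, with no test, and reads counted on mt-Nd6 can come from either strand.

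The populations differed in the ratio of neighbouring genes. mt-Nd6 and mt-Nd5 are read from opposite strands and overlap by 14 bases, and the ratio of their RPKM was 0.349 to 0.772 in tumor cells, 1.32 to 1.76 in TRMs and 1.43 to 1.69 in MDMs. Since reads counted on mt-Nd6 can come from either strand, this ratio need not be that of the transcripts. mt-Nd4l and mt-Nd4 share 7 bases and a transcript, and their ratio was 0.900 to 1.18 in tumor cells, 1.68 to 1.89 in TRMs and 2.02 to 2.14 in MDMs. Gm10925, the copy of mt-Atp6, stood at 1.78 to 2.41 times mt-Co1 in tumor cells, 5.99 to 6.50 times in TRMs and 4.75 to 6.41 times in MDMs. In each of these ratios the 4 tumor cell libraries lay below all 8 macrophage libraries, in both genotypes. The tables were normalized separately, and a ratio within a library does not depend on that, but the populations were not tested against each other.

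Nuclear genes of the respiratory chain did not rise with the mitochondrial ones in tumor cells. Of 41 tested genes of the nuclear core of complex I and of complexes II to V, 20 fell and 0 rose in KLG4, where 19.6% of all genes tested fell and 20.6% rose. Their median log2 difference was -0.52, against -0.09 for all genes. In complex IV, 8 of 10 nuclear genes fell, as did 5 of 11 of complex V, 4 of 9 of complex III, 2 of 7 of complex I and 1 of 4 of complex II, the counts of complexes I and II being near the share of all genes. Uqcrh, a hinge subunit of complex III, was at 64.6 and 59.8 RPKM in KLG4 compared with 276 and 172 in KL, 3.50-fold lower (log2 -1.81 ± 0.24 SE, adjusted p 0.00318). Uqcr11, a small subunit of the same complex, was at 43.5 and 51.2 against 175 and 115 RPKM (log2 -1.59 ± 0.22 SE, adjusted p 0.00404). Atp5j, of the stalk of the ATP synthase, Cox5b, of complex IV, and Atp5e, of the rotor of the ATP synthase, were lower by 2.03-fold, 2.01-fold and 1.95-fold. For all 5 genes both KLG4 libraries lay below both KL libraries, as they did in all 10 nuclear genes of complex IV. The epithelial, leukocyte, fibroblast and AT2 values of the tumor cell libraries move with these differences too, and their part was not tested.

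Genes that act on mitochondrial DNA and RNA were called in both directions in tumor cells, where 40.3% of all genes tested passed. Of 7 tested genes of mitochondrial transcription, 1 was higher in KLG4 tumor cells and none lower. It was Mterf4, named after its value was seen, with 10.2 and 9.64 RPKM against 5.30 and 6.13 RPKM and is known for its part in assembling the mitochondrial ribosome. Tfam, which packages mitochondrial DNA and starts its transcription, was also named after its value was seen: it stood at 3.92 and 4.78 RPKM in KLG4 compared with 7.11 and 5.33 in KL and did not pass (adjusted p 0.116). Of 19 genes of mitochondrial RNA processing, stability and decay, 2 rose and 6 fell, a share near that of all genes. The 2 that rose, Supv3l1 (log2 0.85), a helicase of RNA decay, and Pde12 (log2 0.64), which trims mitochondrial poly(A) tails, were likewise named after their values were seen. Of 7 genes of mitochondrial DNA replication, 2 fell, and of 6 regulators of biogenesis 1 fell.
In the macrophages no nuclear gene of these lists passed an adjusted p of 0.05 in limma, out of 81 tested in TRMs, where 1.8% of all genes passed, and 74 in MDMs, where 0.0% did, so these zeros are near the share of all genes. In TRMs 3 genes were higher at the threshold of the study, as were 12% of all genes tested. Pprc1, a coactivator of mitochondrial biogenesis, was at 5.27 and 4.10 RPKM in KLG4 compared with 1.22 and 1.64 in KL (log2 1.64, adjusted p 0.0592). Twnk, the helicase of mitochondrial DNA replication, and Yy1, a transcription factor of nuclear genes for mitochondria, were the others, with log2 differences of 1.42 and 1.19. The respiratory chain genes of the nucleus had a median log2 difference of 0.17 over 42 genes in TRMs, below the 0.38 of all genes, and of -0.27 over 41 genes in MDMs, against 0.02. The 13 mitochondrially encoded genes lay at -2.46 and -1.76 in the same tables.

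**Figure D5:**
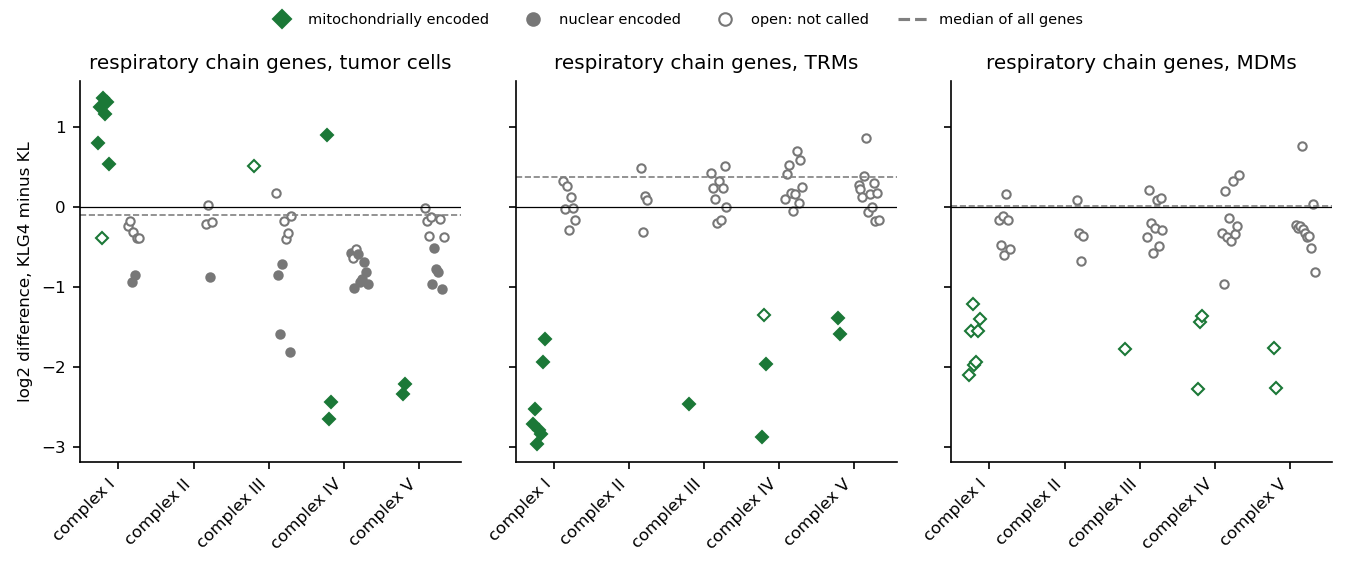
log2 difference, KLG4 minus KL, of mitochondrially encoded (green diamonds) and nuclear (gray circles) subunit genes by respiratory complex, filled where the adjusted p was under 0.05, with the median of all genes dashed. In tumor cells 20 of 41 nuclear genes fell and none rose, while the mitochondrial genes of complex I other than mt-Nd3 stand above 0, and in TRMs and MDMs the mitochondrial genes stand below the nuclear ones of each complex.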

How the data were processed

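RNA of sorted tumor cells, TRMs and MDMs had been poly(A)-selected, made into libraries without strand information and sequenced as 150-base read pairs. The authors trimmed reads (Trim Galore 0.6.4), aligned them to GRCm38 (HISAT2 2.0.5), counted them per gene (featureCounts 2.0.0, default parameters) and deposited RPKM per library in 1 table per population. The deposited tables also hold gene coordinates, taken as annotation, and the authors' own comparisons (fold changes and p-values), which were not used. Whole reads were recovered from RPKM and gene length, with at least 99.99% of values under 2000 reads within 0.05 of a whole number. Depth was 9140750 to 36617000 counted reads. Counting error is part of the spread between libraries.

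KLG4 was compared with KL within each table by limma 3.58.1 (R 4.3.3), two-sided, on log2(RPKM + 0.1), modelling a mean-variance trend, over all genes that reached 1 RPKM in 2 or more of the 4 libraries, and Benjamini-Hochberg adjusted over them. Fold changes are on that scale, which understates changes of low genes. Named were all protein-coding and rRNA genes, the 5 tRNA genes of highest mean RPKM in each table, any tRNA gene with an adjusted p under 0.05, and up to 5 genes of the nuclear lists per population. Members and lists were chosen with earlier results of these data known. Scripts were tested on simulated data. Alternatives were pseudocounts of 0.01 and 1, other filters and scalings, no trend, limma-voom on recovered reads, a replicate block, leaving out each replicate, and sums with nuclear copies, the last chosen after seeing the data. The remaining 5 of 17 samples were not analysed here. Part of the genotype that both groups share is not reported here.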

Additional observations from a re-analysis of the deposited data

Results flagged for a closer look

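The difference between KLG4 and KL had opposite directions in tumor cells and in macrophages, and this was not tested, because each table was normalized separately. The log2 ratio of the share of reads in mitochondrially encoded genes, KLG4 over KL, was 3.48 higher in tumor cells than in TRMs and 2.96 higher than in MDMs, with every KLG4 library on the other side of the KL libraries. Of the 34 members, 24 had both KLG4 libraries above both KL libraries in tumor cells and below them in TRMs, and 22 of the 30 tested in MDMs did so there. Of all genes tested in both tables, 2.48% had this pattern with TRMs and 4.97% with MDMs. The log2 differences of these protein-coding genes in tumor cells were 0.81 for mt-Nd1, 1.25 for mt-Nd2, 1.36 for mt-Nd4, 1.17 for mt-Nd4l, 1.32 for mt-Nd5, 0.55 for mt-Nd6, 0.52 for mt-Cytb and 0.90 for mt-Co1. Those of the rRNA genes were 1.79 for mt-Rnr1 and 1.31 for mt-Rnr2.

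Those of the tRNA genes were 2.29 for mt-Ta, 1.71 for mt-Tc, 1.34 for mt-Te, 2.30 for mt-Ti, 1.92 for mt-Tl1, 1.75 for mt-Tm, 1.98 for mt-Tn, 0.20 for mt-Tp, 2.16 for mt-Tq, 0.92 for mt-Tv, 3.05 for mt-Tw and 1.20 for mt-Ty. mt-Tg (0.32) and mt-Tt (0.75) were opposite in TRMs but not in MDMs, where mt-Tg overlapped and mt-Tt was not listed. Epithelial, leukocyte, fibroblast and AT2 marker levels in tumor cells and summed epithelial, AT2 and cardiac muscle marker levels in both kinds of macrophage also differed between KLG4 and KL. So did summed leukocyte, alveolar and monocyte-derived marker levels and Xist in TRMs, and the part of each was not tested.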

How the results depend on the processing

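The direction of the median protein-coding difference held under every alternative in all 3 populations. In tumor cells the median of 0.55 was 0.061 under quantile scaling, 0.83 with each gene summed with its nuclear copy and 0.53 to 0.69 with 1 library left out. The direction turned for mt-Co3 (1.00) and mt-Atp6 (1.19) in those sums, by construction, since their copies hold nearly all the reads. The count of 11 genes past the threshold, 7 higher and 4 lower, was 8 under quantile scaling (4 higher, 4 lower), 10 in those sums (9 higher, 1 lower) and 4 to 13 with 1 library left out, with 0 higher and 4 lower without KLG4 replicate 1 and 2 higher and 4 lower without KLG4 replicate 2. In TRMs the count of 12 was 4 under TMM scaling, 4 after rescaling to reads outside mitochondrial genes, 0 without the mean-variance trend (12 genes called in all) and 5 to 13 with 1 library left out, and the cause was not tested. The TRM median of -2.46 was -1.87 under quantile scaling, -2.86 under TMM, -2.85 after rescaling, -2.87 in limma-voom and -2.63 to -2.23 with 1 library left out. Over all genes, the number called ranged from 1843 to 7243 in tumor cells, against 5543 as reported, and from 12 to 2631 in TRMs, against 198, and was 2591 in MDMs without KL replicate 1, against 0. In MDMs the count stayed at 0 but was 13 without KL replicate 1, a range of 0 to 13, and the median ranged from -2.29 to -1.19. The log2 ratio of the read shares, with 1 library left out, ranged from 0.80 to 1.08 in tumor cells, -2.97 to -2.22 in TRMs and -2.54 to -1.22 in MDMs. A fit that leaves a group with 1 library assumes that it varies like the other group.

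With a replicate block, 9 of 13 protein-coding genes passed in tumor cells, 12 in TRMs and 0 in MDMs, with 5388, 470 and 0 genes called in all. The numbers did not pair the libraries: the correlation of the deviations of libraries of the same number was 0.02, -0.06 and 0.05. With 2 libraries a group, depth limits the members on few reads, such as mt-Ti with 19 to 57 reads in tumor cells. Among low counts only 17.4% to 32.5% were odd in a library, so mates were mostly counted as separate reads. Fragments are thus fewer than the reads given, and limma-voom and the chi-square took reads.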

Other observations

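Other nuclear copies of mitochondrial sequence also moved in tumor cells. Gm13341, which holds windows of mt-Co2, was at 7.76 and 6.54 RPKM in KLG4 compared with 59.98 and 38.9 in KL tumor cells, and Gm13340 was at 5.02 and 6.06 against 36.1 and 32.8 RPKM. In TRMs Gm13341 was at 19.0 and 4.56 RPKM in KLG4 compared with 22.9 and 21.5 in KL, with KLG4 replicate 2 standing apart. These genes were looked at after the values of the members were seen, and no test of them is given. Within the 13 protein-coding genes, mt-Co2, mt-Atp8, mt-Atp6, mt-Co3 and mt-Nd3 together held 0.119% and 0.116% of the reads in KLG4 and 1.27% and 0.632% in KL tumor cells, against 0.0983% to 0.249% in TRMs and 0.146% to 0.256% in MDMs, so that the 2 KL tumor cell libraries stood above the other 10 libraries.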
